A study of Mus musculus with 6 samples.

Results

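The pentose phosphate pathway and the dehydrogenases beside it supply NADPH, the electron donor that cells use to reduce glutathione and thioredoxin and to build lipids. Its oxidative branch, which holds the lactonase PGLS and the dehydrogenase PGD, turns glucose-6-phosphate into ribulose-5-phosphate and releases NADPH. The non-oxidative branch (the isomerase RPIA, the epimerase RPE, the transketolase TKT and the transaldolase TALDO1) interconverts sugar phosphates, links the pathway to glycolysis and yields ribose for nucleotides. Cytosolic malic enzyme ME1 and the isocitrate dehydrogenases IDH1 (cytosol and peroxisome) and IDH2 (mitochondrion) make NADPH outside that pathway. The 9 mouse genes for these enzymes (Pgls, Pgd, Rpia, Rpe, Tkt, Taldo1, Me1, Idh1 and Idh2) were taken by symbol from a table of 16426 genes. Each was found once, and all 9 passed the expression filter (1 FPKM or more in 3 or more of the 6 libraries), which left 10804 genes to test.

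RNA came from 4T1-LM3, a carcinoma cell line of the mouse mammary gland. In 3 libraries the cells had received conditioned medium (CM) of matrix fibroblasts (MFs) described as Tdo2high, that is, rich in the enzyme that starts the breakdown of tryptophan to kynurenine, and in 3 libraries a control CM whose source the labels do not give. Dose, exposure time and passage are not in the labels, and neither is whether replicates came from different cultures. The p-values below therefore speak only of the spread among these libraries, part or all of which may be technical. Neither kynurenine alone nor medium of Tdo2-low fibroblasts is among the groups analysed here, and effects of Tdo2 cannot be told apart from other differences between the media. FPKM summed to between 438603 and 447415 per library. Read depth is unknown.

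After Tdo2high MFs CM, 4 of the 9 enzyme genes rose and 1 fell by limma on log2(FPKM + 1), at an adjusted p under 0.05 over all tested genes. Among all 10804 tested genes, 3.35% rose and 4.06% fell, which makes 801 genes or 7.41% in all. Of those 801 calls 45.2% were higher. The share was 55.4% of 822 under median of ratios scaling and 38.8% of 825 with FPKM rescaled to an equal sum per library. Without any 1 library the count of calls was 395 to 559. The same 4 enzyme genes rose in all 17 alternatives tried. The risers were Pgd (1.6-fold), Me1 (1.28-fold), Idh1 (1.21-fold) and Tkt (1.21-fold), and Idh2 fell, at 0.901 of its control mean. Pgls, Rpia, Rpe and Taldo1 did not pass. The groups did not overlap in 6 of the 9 genes (4 higher, 2 lower), against 29.2% of all tested genes (11.6% higher, 17.5% lower). The median log2 fold change was -0.05 over the 9 genes and -0.014 over all tested genes. Summed over the 9 genes, the level was 770.3, 776 and 776 FPKM with Tdo2high MFs CM and 642, 668 and 634 FPKM with Control CM.

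**Figure D1:**
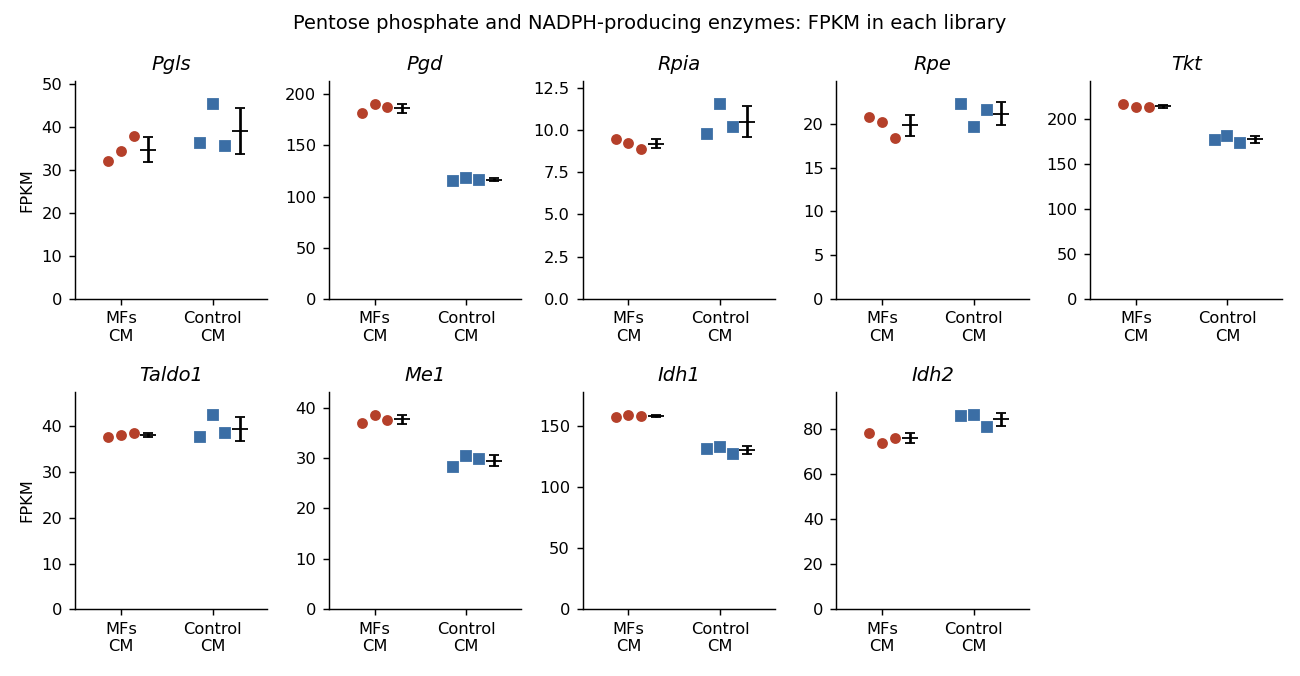
FPKM of the 9 enzyme genes in each library, with Tdo2high MFs CM (labelled MFs CM, circles) on the left and Control CM (squares) on the right of each panel; the horizontal tick is the mean, its bar the SD (n = 3), and each vertical axis starts at 0. The circles lie above all squares for Pgd, Tkt, Me1 and Idh1 and below all squares for Rpia and Idh2.

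In the oxidative branch, Pgd rose and Pgls did not pass. Pgd, which encodes 6-phosphogluconate dehydrogenase, the NADPH-releasing step at the end of the branch, had 181.75, 190.23 and 187.20 FPKM with Tdo2high MFs CM and 115.00, 117.97 and 116.27 FPKM with Control CM. The 2 sets of libraries are far apart, and the spread inside each is a small part of the gap. Pgd averaged 186 ± 4.30 FPKM with Tdo2high MFs CM and 116 ± 1.49 FPKM with Control CM (SD, n = 3 each). Its log2 fold change was 0.67 ± 0.03 (SE; 95% interval 0.61 to 0.74; adjusted p = 7.26e-07 by limma), the 23rd highest of the 10804 tested genes.

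Pgls, the lactonase just upstream of that step, had 32.15, 34.29 and 37.82 FPKM with Tdo2high MFs CM and 36.29, 45.27 and 35.64 FPKM with Control CM. Here the groups overlap, and replicate 2 of Control CM stands above the other 5 libraries. The log2 fold change of Pgls was -0.16 (95% interval -0.35 to 0.03; adjusted p = 0.294 by limma), an interval that holds no rise of the size seen for Pgd.

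Part of a gene's reads can come from other loci, so the 50-base runs of each gene's longest coding transcript were looked up in all other genes. Pgd shares no such run with another gene. In Pgls no run is shared, but exons of Fam129c on the same strand cover 20.6% of its exonic bases. Fam129c did not exceed 2.18 FPKM in any library.

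The promoters of the 9 genes were read for the core of the antioxidant response element, the site bound by NRF2 with a small MAF protein, since several of them moved together. The letters searched were TGACNNNGC on either strand, in 300 bases from 250 before to 50 after each RefSeq start. Among the 9 genes 2 hold a match, in 2 of their 12 listed promoters. The share over all 32851 promoters is 12.4%, over the promoters of tested genes 14.5%, and over all 27025 genes 14%. The count in the 12 promoters is thus close to what promoters hold in general. Both genes are among the 4 that rose, but with 2 matches nothing follows from that. A match is a description of letters and not a shown binding site. The window of Pgd (GRCm38.p6, chr4:149166061-149166139, minus strand) is shown because Pgd rose most of the 9 genes; capitals mark the match, with 60 bases before and 10 after it.
Pgd: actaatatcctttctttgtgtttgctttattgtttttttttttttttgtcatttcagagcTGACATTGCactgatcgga
The match lies 4 to 12 bases into the transcript of the downstream of its 2 listed starts. It is thus inside the gene, after both starts, and is counted above by its letters alone. These letters may be coding sequence rather than a regulatory site, which was not examined. The 300 bases around the upstream start hold no match.

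In the non-oxidative branch 1 of 4 genes rose. Tkt, the transketolase that moves carbon units between sugar phosphates, had 216.16, 212.98 and 213.46 FPKM with Tdo2high MFs CM and 176.66, 181.20 and 173.59 FPKM with Control CM. The groups do not overlap, and the log2 fold change was 0.27 ± 0.03 (95% interval 0.21 to 0.33; adjusted p = 0.000376 by limma). Taldo1, the transaldolase that works beside it, had 37.54, 38.09 and 38.49 FPKM with Tdo2high MFs CM and 37.54, 42.44 and 38.44 FPKM with Control CM. Apart from the high replicate 2 of Control CM these values nearly coincide. The log2 fold change was -0.05 (95% interval -0.15 to 0.05; adjusted p = 0.528 by limma), and its direction turned without that library (0.002). Taldo1 shares 10.9% of its 50-base runs with the processed pseudogene Gm17823, not analysed here.

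Rpia, the isomerase that makes ribose-5-phosphate, was the least expressed of the 9 genes. It had 9.44, 9.20 and 8.90 FPKM with Tdo2high MFs CM and 9.77, 11.52 and 10.16 FPKM with Control CM. All 3 values with Tdo2high MFs CM lie below the lowest control, yet the log2 fold change of -0.17 (95% interval -0.30 to -0.04) did not pass, at an unadjusted p = 0.0155 and an adjusted p = 0.111 by limma. Rpe, the epimerase that feeds the transketolase, had 20.85, 20.20 and 18.45 FPKM with Tdo2high MFs CM and 22.25, 19.69 and 21.62 FPKM with Control CM. The groups overlap, with a log2 fold change of -0.09 (95% interval -0.21 to 0.03; adjusted p = 0.355 by limma). Rpe shares 19.1% of its 50-base runs with Kansl1l on the opposite strand, which covers 17.9% of the exonic bases of Rpe and had a log2 fold change of -0.011 (adjusted p = 0.917 by limma).

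The 3 chosen NADPH makers outside the pathway changed. The cytosolic Me1 and Idh1 rose, and the mitochondrial Idh2 fell, a call lost in 7 of the 17 alternatives. Of 11 other tested genes that can supply or prepare NADP(H), described below, 10 did not pass and 1, the mitochondrial Mthfd2, fell. The mitochondrial relative of Me1, Me3, was among those that did not pass, with a log2 fold change of 0.11. A general split by compartment was not tested. Me1, which turns malate into pyruvate with release of NADPH, had 36.90, 38.51 and 37.49 FPKM with Tdo2high MFs CM and 28.26, 30.37 and 29.83 FPKM with Control CM. The groups lie clearly apart, with a log2 fold change of 0.34 ± 0.04 (95% interval 0.26 to 0.42; adjusted p = 0.000481 by limma). A total of 32.8% of the 50-base runs of Me1 also occur in other transcripts, among them the processed pseudogenes Gm7049 (24.3%) and Gm7329, which were not analysed here, so its level is less certain than the others. TGACTCAGC, a narrower form of TGACNNNGC, was searched too and is present in 0.454% of all promoters on either strand. Of the 2 listed promoters of Me1, the upstream one holds it from 6 bases before to 3 after the start (chr9:86695902-86695980, minus strand, capitals and flanks as above). The downstream one holds no match of either motif, and from 1 match of the narrower form nothing follows.
Me1: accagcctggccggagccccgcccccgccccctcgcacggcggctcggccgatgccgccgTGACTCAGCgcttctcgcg
None of the listed promoters of Tkt, Idh1, Idh2, Pgls, Rpia, Rpe and Taldo1 holds TGACNNNGC, which says nothing of sites elsewhere.

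Idh1 and Idh2 encode paired enzymes that both turn isocitrate into alpha-ketoglutarate with NADP+, in different compartments. Idh1 had 157.45, 159.05 and 158.09 FPKM with Tdo2high MFs CM and 131.02, 133.08 and 127.12 FPKM with Control CM. Its libraries with Tdo2high MFs CM lie close together and above all controls. The log2 fold change was 0.28 ± 0.03 (95% interval 0.22 to 0.34; adjusted p = 0.000347 by limma). Idh2 had 78.10, 73.53 and 75.81 FPKM with Tdo2high MFs CM and 85.51, 86.08 and 80.91 FPKM with Control CM. These groups do not overlap either, but their nearest libraries are close. The log2 fold change of Idh2 was -0.15 ± 0.03 (95% interval -0.23 to -0.07; adjusted p = 0.0288 by limma). That call is the weakest of the 5: in 7 of the 17 alternatives it was lost, for example when low values were not filtered (adjusted p = 0.0787 by limma) and in the fits without Tdo2high MFs CM replicate 2 (0.102) or 3 (0.0837) and without Control CM replicate 1 (0.0932) or 2 (0.0771). The intervals of Idh1 and Idh2 lie on opposite sides of 0. Neither gene shares a 50-base run with another gene.

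**Figure D2:**
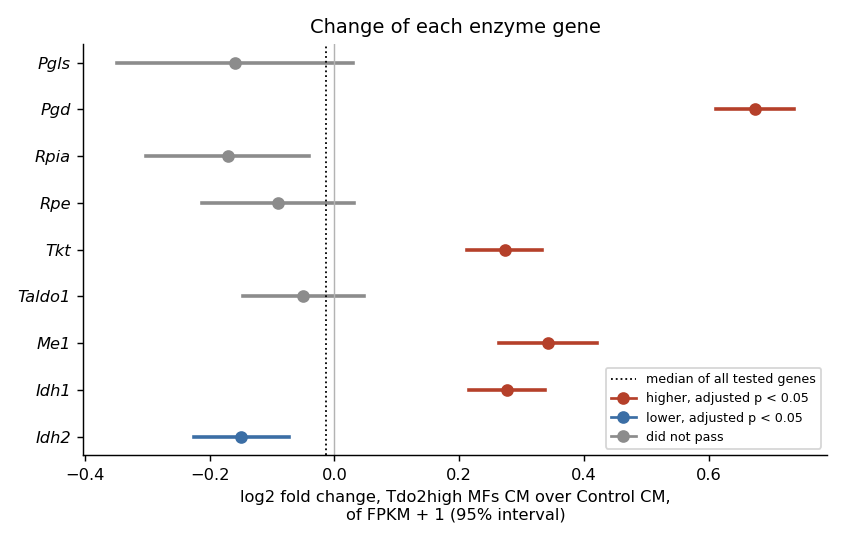
Log2 fold change of each enzyme gene (Tdo2high MFs CM over Control CM, on FPKM + 1) with its 95% interval from the limma fit over 6 libraries; red points are higher and blue points lower at an adjusted p under 0.05, grey points did not pass, and the dotted line marks the median of all tested genes at -0.014. Pgd stands alone at 0.67, and Me1, Idh1 and Tkt lie between 0.27 and 0.34.

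The order of levels among the genes, which FPKM allows since it is scaled by transcript length, differed between the media. With Tdo2high MFs CM it ran Tkt (mean 214 FPKM), Pgd (186), Idh1 (158), Idh2 (75.8), Taldo1 (38.0), Me1 (37.6), Pgls (34.8), Rpe (19.8) and Rpia (9.18). With Control CM it ran Tkt (177), Idh1 (130.4), Pgd (116), Idh2 (84.2), Taldo1 (39.5), Pgls (39.1), Me1 (29.5), Rpe (21.2) and Rpia (10.5). Pgd was thus above Idh1 in all 3 libraries with Tdo2high MFs CM and below it in all 3 control libraries. Taldo1, Me1 and Pgls overlap with Tdo2high MFs CM, as do Taldo1 and Pgls with Control CM, and their order within each medium is not resolved. Tkt ranked 306th by level among the 10804 tested genes and Rpia 6672nd.

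Ratios inside a library do not depend on how libraries were scaled to each other. Pgd per Tkt was 0.841, 0.893 and 0.877 with Tdo2high MFs CM and 0.651, 0.651 and 0.670 with Control CM. Pgd per Taldo1 was 4.84, 4.99 and 4.86 with Tdo2high MFs CM and 3.06, 2.78 and 3.03 with Control CM. In both ratios the groups lie apart, so the genes changed unequally within the libraries.

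Idh1 per Idh2, cytosolic against mitochondrial, was 2.02, 2.16 and 2.09 with Tdo2high MFs CM and 1.53, 1.55 and 1.57 with Control CM, again without overlap. Me1 per Idh1 was 0.234, 0.242 and 0.237 with Tdo2high MFs CM and 0.216, 0.228 and 0.235 with Control CM, and there the groups overlap. For such a ratio, with 3 libraries per medium, a two-sided exact permutation test cannot give less than p = 0.1. Pgd made up 23.6%, 24.5% and 24.1% of the summed FPKM of the 9 genes with Tdo2high MFs CM and 17.9%, 17.7% and 18.35% with Control CM. The share of Tkt overlapped between the media, at 27.7% ± 0.337 with Tdo2high MFs CM and 27.35% ± 0.187 with Control CM (SD, n = 3 each).

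**Figure D3:**
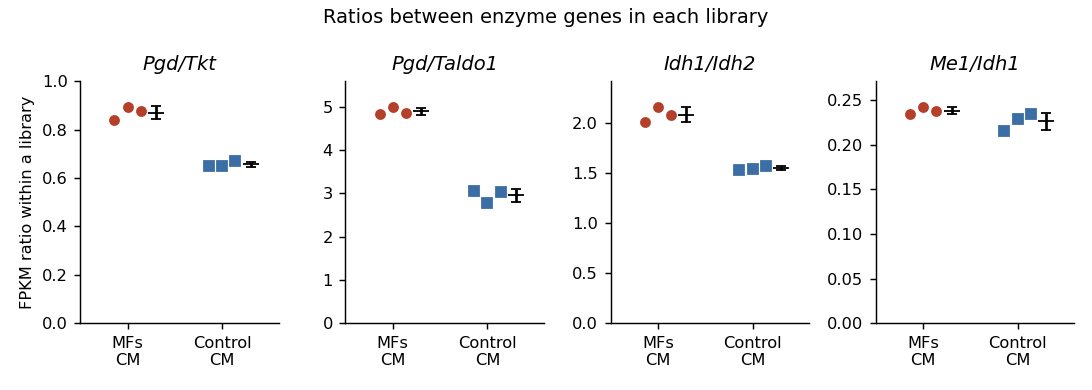
Ratios of FPKM between enzyme genes within each library, with Tdo2high MFs CM (MFs CM, circles) left and Control CM (squares) right, mean and SD (n = 3) beside the points, and axes from 0. The groups are apart for Pgd over Tkt and Taldo1 and for Idh1 over Idh2, and overlap for Me1 over Idh1.

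Further genes of the pathway gave no such shift. Of 12 genes listed for pentose phosphate and ribose use, 9 were tested and none passed in either direction by limma, also at an unadjusted p under 0.05 (0 higher, 0 lower); their log2 fold changes ran from -0.06 to 0.08. Among them was H6pd, which does the first oxidative steps in the endoplasmic reticulum. It had 22.5 ± 0.146 FPKM with Tdo2high MFs CM and 21.8 ± 0.489 FPKM with Control CM (log2 fold change 0.04). The ribose-phosphate pyrophosphokinases Prps1 (0.015) and Prps2 (0.022), which carry ribose-5-phosphate into nucleotides, did not pass either. The transketolase-like gene Tktl1 stayed at or under 0.31 FPKM.

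Of 11 other tested genes that can supply or prepare NADP(H), 1 fell and none rose by limma (at an unadjusted p under 0.05, 1 was higher and 4 were lower). Mthfd2, the mitochondrial folate dehydrogenase, fell to 10.07, 9.32 and 10.04 FPKM with Tdo2high MFs CM, against 14.60, 13.49 and 12.76 FPKM with Control CM, with a log2 fold change of -0.43 ± 0.05 (adjusted p = 0.00137). The mitochondrial malic enzyme Me3, relative of Me1, had 50.8 ± 1.85 FPKM with Tdo2high MFs CM and 47.1 ± 0.943 FPKM with Control CM (log2 fold change 0.11, adjusted p = 0.0842). Nnt, the transhydrogenase that makes mitochondrial NADPH, had 0.002, and Nadk, the kinase that makes NADP+ in the cytosol, -0.09 (adjusted p = 0.135). The median of this list was -0.075.

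Of 16 tested reductases that can use NADPH, 5 rose and 2 fell. Which cofactor each enzyme prefers was not examined. Nqo1, a quinone reductase, had the largest log2 fold change (1.45 ± 0.04), then Blvrb, a biliverdin and flavin reductase (0.71 ± 0.05), Txnrd1, the cytosolic thioredoxin reductase (0.59 ± 0.03), Gsr, which regenerates reduced glutathione (0.28 ± 0.03), and Ptgr1, a prostaglandin reductase (0.17 ± 0.04). The falls were those of Pycr1, a mitochondrial proline enzyme (-0.27 ± 0.07, adjusted p = 0.0436 by limma), and Txnrd2, the mitochondrial thioredoxin reductase (-0.18 ± 0.04, adjusted p = 0.0245). Txnrd2 had 13.56, 13.59 and 13.06 FPKM with Tdo2high MFs CM and 15.60, 15.34 and 14.85 FPKM with Control CM, while Txnrd1 had 95.94, 98.27 and 96.79 FPKM with Tdo2high MFs CM and 63.00, 64.01 and 65.68 FPKM with Control CM. As with Idh1 and Idh2, the cytosolic gene was higher and the mitochondrial one lower; this pair was picked out after its values were seen. The calls of Ptgr1, Pycr1 and Txnrd2 were lost in 8, 10 and 7 of the 17 alternatives, for example when low values were not filtered (adjusted p = 0.111, 0.133 and 0.0504 by limma).

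Fasn, the fatty acid synthase and a large user of NADPH, did not pass. It had 63.2 ± 0.822 FPKM with Tdo2high MFs CM and 66.0 ± 1.54 FPKM with Control CM, with a log2 fold change of -0.06 (adjusted p = 0.234 by limma).

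Glycolysis, from which glucose-6-phosphate is drawn, changed little. Of 18 tested genes, Aldoc, an aldolase, rose (0.25 ± 0.04) and Pfkp, a phosphofructokinase, fell (-0.12 ± 0.03, adjusted p = 0.0306 by limma). The call of Pfkp was lost in 9 of the 17 alternatives, for example under median of ratios scaling (0.0541). That of Aldoc was lost in 1, with a fold minimum of 1.1 (0.684). Over the 17 alternatives 0 to 2 of these genes rose and 0 to 2 fell. At the branch point Hk1, Hk2 and Gpi1, which make and use glucose-6-phosphate, had log2 fold changes of -0.012, 0.044 and 0.036. None of 19 tested genes of the tricarboxylic acid cycle and of citrate and malate exchange passed by limma (1 higher and 1 lower at an unadjusted p under 0.05), and without Control CM replicate 2 there was 1 rise. That list holds the NAD-linked isocitrate dehydrogenase subunits Idh3a (-0.04), Idh3b (-0.05) and Idh3g (0.002), the cytosolic aconitase Aco1 that supplies isocitrate (-0.06), and the cytosolic malate dehydrogenase Mdh1 (0.02), which supplies malate to malic enzyme.

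**Figure D4:**
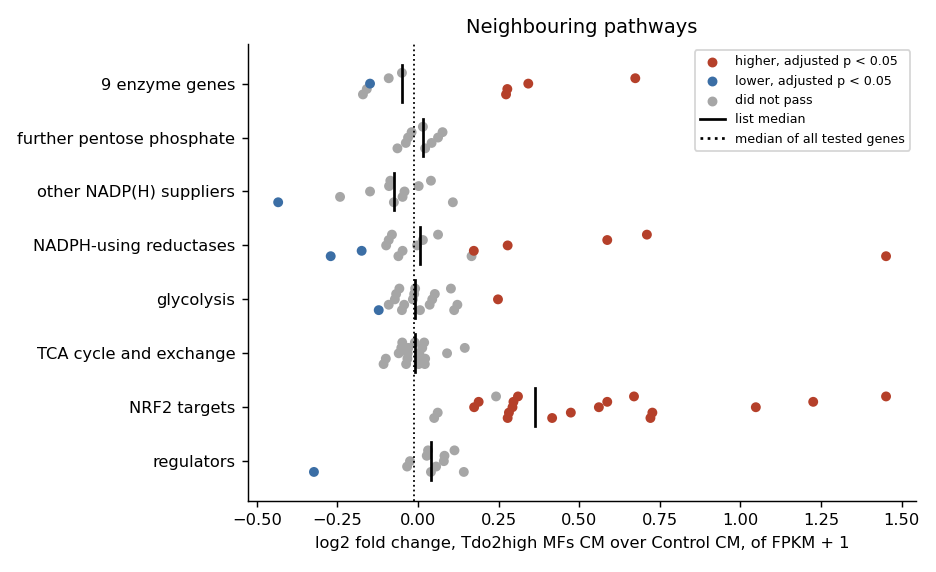
Log2 fold changes (Tdo2high MFs CM over Control CM, on FPKM + 1) of the tested genes of the 9 enzymes and of 7 neighbouring lists, 1 point per gene; red is higher and blue lower at an adjusted p under 0.05, black bars are list medians and the dotted line is the median of all tested genes. The medians lie at 0.36 for NRF2 targets and -0.05 for the 9 enzymes, and between -0.075 and 0.04 for the other lists.

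NRF2, encoded by Nfe2l2, is a transcription factor known to drive Pgd, Tkt, Taldo1, Me1 and Idh1 along with detoxifying genes. Of 20 tested NRF2 targets outside NADPH supply, 17 rose and none fell by limma (17 and 0 at an unadjusted p under 0.05). Their median log2 fold change was 0.36. Among all 10804 tested genes, 3.35% rose. The count that rose was 15 to 17 in the other alternatives and 10 with a fold minimum of 1.1. Of these targets Nqo1, Txnrd1 and Gsr are also among the 5 reductases that rose. Nqo1, Osgin1 (1.23 ± 0.06), the glutathione transferase Gstm1 (1.05 ± 0.03) and Gclc (0.73 ± 0.03), which limits glutathione synthesis, led them. Of the 5 enzyme genes just named, 4 rose, and Taldo1 did not pass. The targets and the enzyme genes were chosen with earlier results of these data known, so these counts may partly reflect that choice. The part of NRF2 in them was not tested. Among 11 tested regulators none rose and 1 fell by limma (3 higher and 1 lower at an unadjusted p under 0.05), and 1 rose under median of ratios scaling, under quantile normalization and without Control CM replicate 2. Nfe2l2 mRNA had 79.9 ± 0.626 FPKM with Tdo2high MFs CM and 75.4 ± 3.02 FPKM with Control CM (0.08, adjusted p = 0.16), and that of its inhibitor Keap1 had 39.1 ± 0.478 FPKM with Tdo2high MFs CM and 36.9 ± 0.532 FPKM with Control CM (0.08, adjusted p = 0.129). Trp53, the tumour suppressor p53, was the one that fell (-0.32 ± 0.04, adjusted p = 0.00229), a call lost with a fold minimum of 1.1 (0.0937). Srebf1, a driver of lipogenic genes, had -0.03.

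The tested genes whose 6 library values, centred on their mean, lay nearest to those of Pgd were Fam210b, Srxn1, Gclc, Txnrd1 and Selp, at root mean square distances of 0.0397, 0.0399, 0.0427, 0.0479 and 0.0492 on the log2 scale. Their log2 fold changes were 0.64, 0.72, 0.73, 0.59 and 0.67. Values near that of Pgd follow from this choice, since the distance includes the difference between the media. Srxn1 encodes sulfiredoxin, which repairs peroxiredoxins, and Selp encodes P-selectin, an adhesion molecule. With a pseudocount of 0.1 the 5 nearest to Pgd were the same.

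Markers were read to see whose RNA this was. Krt8 and Krt18, keratins of simple epithelium, averaged 277 and 378 FPKM with Tdo2high MFs CM and 272 and 356 FPKM with Control CM. But of 11 epithelial markers 9 had values, and 6 of these stayed under 1 FPKM in every library. Among those 6, Cdh1 and Epcam did not exceed 0.02 and 0.11 FPKM. Ocln, also an epithelial marker, averaged 1.35 FPKM with Tdo2high MFs CM and 1.23 FPKM with Control CM. Of 12 fibroblast markers 9 had values, and 4 of these stayed under 1 FPKM in every library, among them Col1a1 (at most 0.12 FPKM) and Col1a2 (at most 0.01). The other 5 were expressed and tested, and 2 rose and 2 fell. Npnt, nephronectin, a matrix protein, rose to 43.44, 44.60 and 41.43 FPKM with Tdo2high MFs CM, against 31.91, 29.99 and 31.66 FPKM with Control CM (log2 fold change 0.46 ± 0.04, adjusted p = 9.97e-05 by limma). Dcn, the matrix proteoglycan decorin, fell to 11.85, 10.75 and 9.99 FPKM with Tdo2high MFs CM, against 16.06, 15.03 and 15.48 FPKM with Control CM (-0.48 ± 0.06, adjusted p = 0.00114 by limma). Pdgfra, a growth factor receptor, averaged 47.3 FPKM with Tdo2high MFs CM and 41.9 FPKM with Control CM (0.17 ± 0.03, adjusted p = 0.00518 by limma), a rise lost with a fold minimum of 1.1. Its relative Pdgfrb averaged 23.1 FPKM with Tdo2high MFs CM and 23.6 FPKM with Control CM and did not pass. Fap, a surface protease, averaged 3.04 FPKM with Tdo2high MFs CM and 4.00 FPKM with Control CM (-0.31 ± 0.08, adjusted p = 0.0385 by limma), and its call was lost in 7 of 16 alternatives, for example without Tdo2high MFs CM replicate 2 (0.127) or 3 (0.0947) and without Control CM replicate 1 (0.125) or 3 (0.108). The 9 fibroblast markers summed to between 125 and 129.6 FPKM with Tdo2high MFs CM and between 114 and 119 FPKM with Control CM. Their part in the enzyme results was not tested. The 5 myeloid markers in the table summed to at most 2.20 FPKM and the 3 endothelial ones to at most 0.12 FPKM in any library. In such bulk samples, fewer cells of a kind and less RNA per cell cannot be told apart.

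On GRCm38.p6 the genes that changed lie apart from each other: Pgd on chromosome 4 from 149149991 to 149166705, Tkt on chromosome 14 from 30549131 to 30574724, Me1 on chromosome 9 from 86581363 to 86695914, Idh1 on chromosome 1 from 65158616 to 65186479 and Idh2 on chromosome 7 from 80094845 to 80118608. Of the others, Rpe is on chromosome 1 from 66700797 to 66719805, Taldo1 on chromosome 7 from 141392160 to 141402976, Pgls on chromosome 8 from 71592184 to 71596267 and Rpia on chromosome 6 from 70765720 to 70792175.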

How the data were processed

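Polyadenylated RNA of 6 libraries of 4T1-LM3 cells was copied with random hexamers and sequenced at BGI, per the labels' protocols. The authors deposited FPKM (a transcript's fragments divided by its length and by the library's mapped total), per the file headers, rounded to 2 decimals, for 16426 genes. The build was GRCm38, per the submitters' processing notes; aligner, quantifier, annotation and use of strand: not given in the sources used here. Read depth is unknown: 3671 values between 0.1 and 0.6 FPKM, each divided by its gene's smallest value, lay on average 0.25 from a whole number, the distance that values without steps have. FPKM is relative, so a change in abundant genes shifts all others.

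Genes with at least 1 FPKM in at least 3 libraries (10804) were tested as log2(FPKM + 1) by limma 3.58.1 in R 4.3.3 (eBayes with an intensity trend, two-sided, Benjamini-Hochberg over all tested genes, threshold 0.05, 95% intervals), and the test was tried on simulated data. Groups come from the sample titles. The fit was repeated with another pseudocount, filter, scaling or variance model, with the replicate number as a block, with a minimum fold of 1.1 and with each library omitted in turn. The 10 members and all lists were chosen with earlier results of these data known. Of the members, 1 is not reported here, and neither are some listed genes; they stayed in the fit. The other members are named, with the called genes of the other lists (up to 4 for NRF2 targets) and the 5 nearest profiles of Pgd; genes named beyond these were chosen after their values were seen. Shared sequence was sought as identical runs of 50 bases between a member's longest coding transcript and all transcripts of GENCODE M21. Gene positions and promoters come from RefSeq (GRCm38.p6), which held all 9 members described. Figures were drawn with matplotlib 3.10.9.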

Additional observations from a re-analysis of the deposited data

How the results depend on the processing

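The calls of Pgd, Me1, Idh1 and Tkt, and the failure of Pgls, Rpia, Rpe and Taldo1 to pass, held in all 17 alternatives. Over these the log2 fold change ran from 0.66 to 0.69 for Pgd, from 0.31 to 0.36 for Me1 and from 0.26 to 0.29 for Idh1 and for Tkt. Taldo1 ran from -0.084 to 0.002 without 1 library, with the turn of sign in the fit without Control CM replicate 2. Idh2 kept its direction (-0.18 to -0.13), but no member was called lower (0) with no filter on low values, without an intensity trend and with a fold minimum of 1.1, and the count of members called lower was 0 to 1 without 1 library.

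Over all tested genes, 801 calls (362 higher, 439 lower) became 394 (199 higher, 195 lower) with no filter, which tests 16397 genes, 525 (277 lower) without the trend and 81 (59 higher, 22 lower) with the fold minimum. The cause of the other shifts was not tested. Without any 1 library, which leaves 5, the counts were 395 to 559 in all, 209 to 293 higher and 186 to 266 lower: 486, 395 and 440 without Tdo2high MFs CM replicate 1, 2 or 3 and 440, 559 and 501 without Control CM replicate 1, 2 or 3. With the replicate block the count was 622, with the same 5 members called. Same-numbered libraries did not deviate together (r = -0.023, -0.030 and 0.018), so no shared effect of the number was visible. Whether they were prepared as pairs is not in the labels, and these values cannot decide it. No scaling moved the median log2 fold change of all genes by over 0.1. Unknown depth and 3 libraries per medium limit the precision, above all for Rpia and Pgls.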
